A study of Gallus gallus with 26 samples.

Results

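The microRNA miR-202 is cut from one hairpin into a 5p and a 3p arm, and both mature arms, gga-miR-202-5p and gga-miR-202-3p, are listed in the miRNA table of chicken ovary and ovarian tumour. They were chosen by name, as the 2 rows for this hairpin among 1235 miRNAs in the table. Each is listed with a length of 22 bases. The study took normal ovary (4 samples), early-stage ovarian cancer (4 samples) and late-stage ovarian cancer (5 samples) from Gallus gallus, and every sample code has a miRNA and a messenger RNA column. No genotype, strain, treatment or age is given in the labels for any of the groups, nor whether each sample is a different hen. P-values therefore measure the spread between these samples, which may be technical. A library is named below by its group and the number in its sample code, such as late 3. Both arms passed the filter on low counts and were tested together with all miRNAs that passed it, 266 in number.

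A miRNA hairpin is trimmed first in the nucleus and then in the cytoplasm, and an Argonaute protein keeps one arm as the guide that pairs with messenger RNAs, while the other arm is mostly degraded. miR-202 is known as a miRNA of the gonads of vertebrates. In chicken embryos the 5p arm is higher in the testis than in the ovary, in mice the gene responds to the testis factor SOX9, and in the fish medaka its loss lowers egg production. Hens develop ovarian cancer spontaneously, and the comparison of normal ovary with the tumour stages asks which RNAs differ between them.

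miRNA libraries held 3038926 to 7728289 counts. Sampling error alone was between 0.221% and 0.581% of the count for the 5p arm and between 4.77% and 14.4% for the 3p arm, which had far fewer reads. The red blood cell miRNA miR-451 took 2.14% to 11.6% of the reads in the libraries other than early 11, where it took 36.3%. Ovarian RNA was present in all 3 groups: the egg coat gene ZP2 stood at 340.9 ± 103.1 CPM (normalised read count, as a rate over the scaled library size) in normal ovary (SD, n = 4). In early tumour it was at 313.7 ± 99.9 (n = 4) and in late tumour at 358.7 ± 80.2 (n = 5). Another egg coat gene, ZP1, averaged 67.6 ± 34.8, 54.6 ± 42.8 and 15.5 ± 13.8 CPM in normal ovary, early and late tumour. In late tumour against normal ovary it was the 1 lower of 14 genes tested from an oocyte list, where 49.1% of all genes were lower (log2 fold change -2.12 ± 0.70 SE, edgeR adjusted p = 0.244). Every sample is bulk tissue, so fewer cells of a type and less RNA per cell cannot be told apart.

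gga-miR-202-5p was one of the abundant miRNAs of this tissue. By mean CPM it stood at rank 16 of the 266 miRNAs tested, at 13617 ± 6424 CPM (SD, n = 13), between miR-191-5p at 14203 and miR-145-5p at 13233. It took 0.551% of all miRNA reads in early 9 and 3.98% in late 3, and the exact 95% binomial interval in early 9 was 0.544% to 0.557%. Such intervals on read shares cover counting error only. Within single libraries it ranked from 6 in late 3 to 19 in early 9 and early 21.

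In normal ovary gga-miR-202-5p stood at 9747 CPM in normal 4, 14639 in normal 6, 15525 in normal 3 and 16984 in normal 7. Early tumour gave 4684 CPM in early 9, 8598 in early 21, 10327 in early 12 and 11645 in early 11. Late tumour gave 8310 CPM in late 31, 10594 in late 23, 17546 in late 25, 18416 in late 7 and 30011 in late 3. All groups overlapped for both arms, where 3.01% of the miRNAs tested had separate groups in early against normal, 6.02% in late against normal and 3.38% in late against early. In early tumour, early 11 and early 12 were above normal 4 and below the other normal libraries, while late tumour reached both below and above the whole normal range.

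gga-miR-202-3p was read at a low level in all libraries. Its mean was 24.5 ± 14.3 CPM (SD, n = 13), at rank 159 of the 266 miRNAs tested. Normal ovary gave 11.4 CPM in normal 6, 22.4 in normal 3, 23.1 in normal 4 and 38.0 in normal 7. Early tumour gave 9.82 CPM in early 9, 15.9 in early 21, 17.2 in early 11 and 25.1 in early 12. In late tumour the values were 17.6 CPM in late 31, 18.8 in late 23, 21.7 in late 7, 33.4 in late 25 and 64.4 in late 3. This arm shared its highest and lowest library, late 3 and early 9, with the 5p arm. The counts behind these values ran from 48 reads in normal 6 to 439 in late 3.

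**Figure D1:**
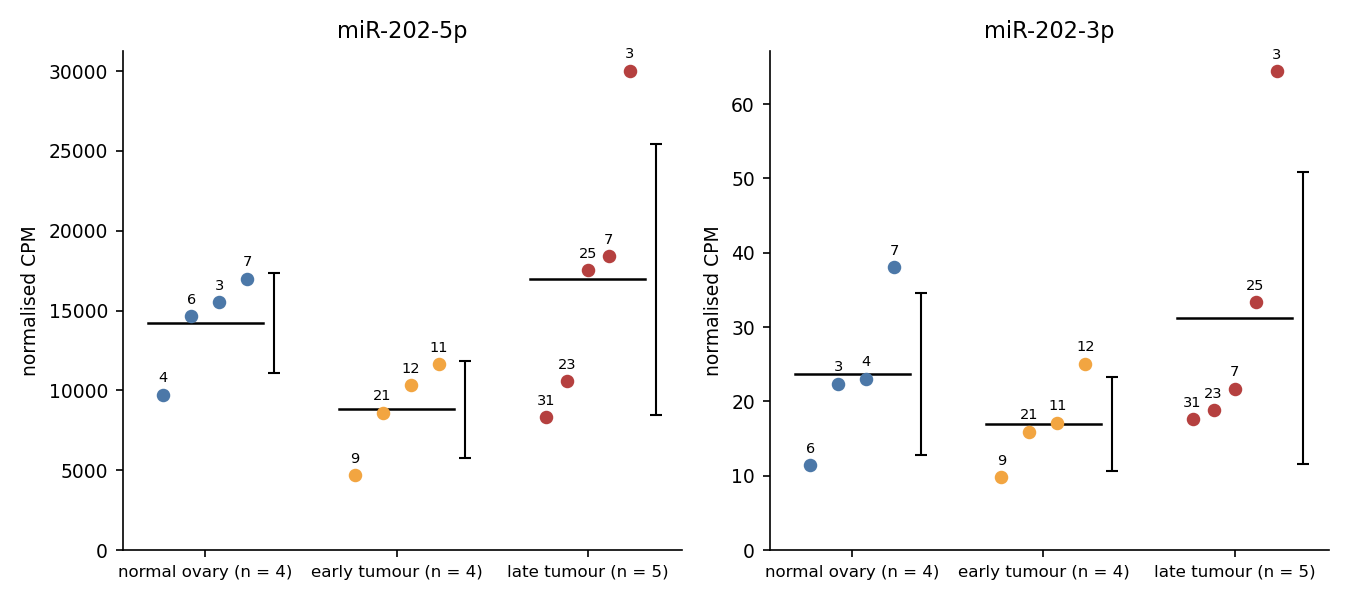
Normalised CPM of the 5p arm (left) and the 3p arm (right) in each library of normal ovary (n = 4), early tumour (n = 4) and late tumour (n = 5). Points are libraries with their sample number, horizontal lines are group means and the bars beside them are ± 1 SD. Late 3 is the highest and early 9 the lowest library for both arms.

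Mean levels of both arms were in the order late, normal, early. The 5p arm averaged 16975 ± 8488 CPM in late tumour, 14224 ± 3137 in normal ovary and 8814 ± 3022 in early tumour (SD, n = 5, 4 and 4). For the 3p arm the means were 31.2 ± 19.6 CPM, 23.7 ± 10.9 and 17.0 ± 6.28. No neighbouring pair of groups in this order passed the test for either arm.

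Early tumour was compared with normal ovary in a quasi-likelihood fit of all libraries (edgeR, p-values adjusted over the 266 miRNAs, threshold 0.05). The 5p arm had a log2 fold change of -0.69 ± 0.37 SE (edgeR adjusted p = 0.653, unadjusted p = 0.0793), and its 95% interval ran from -1.47 to 0.09. The 3p arm had -0.49 ± 0.46 SE (edgeR adjusted p = 0.908), with an interval from -1.47 to 0.49. Thus 0 of the 2 arms were called, where 0% of all miRNAs tested were called and 8.27% had an unadjusted p under 0.05. DESeq2 called 3 miRNAs in this comparison and limma voom 0, in neither case an arm of miR-202.

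Late tumour against normal ovary gave smaller differences. The 5p arm had a log2 fold change of 0.26 ± 0.35 SE (edgeR adjusted p = 0.714, interval -0.49 to 1.00). For the 3p arm it was 0.39 ± 0.43 SE (edgeR adjusted p = 0.651, interval -0.53 to 1.32). Neither arm was called, where 0.752% of all miRNAs tested were, and 18.4% had an unadjusted p under 0.05. Both directions rested on late 3: without it the log2 fold changes were -0.04 for the 5p arm and -0.05 for the 3p arm.

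Late against early tumour held the greatest difference of both arms. The 5p arm had a log2 fold change of 0.95 ± 0.35 SE, or 1.93 times the early level, with an interval of 0.19 to 1.70. Its unadjusted p was 0.0175, the seventeenth smallest of the 266, and its edgeR adjusted p was 0.273. The 3p arm had 0.88 ± 0.44 SE (edgeR adjusted p = 0.403, interval -0.06 to 1.82). Again 0 of the 2 arms were called, against 0% of all miRNAs by the adjusted p and 14.3% by an unadjusted p under 0.05. DESeq2 called 4 miRNAs and limma voom 0, again without an arm of miR-202. When miRNAs with few counts were kept in the fit, the 5p arm passed (log2 fold change 1.03 ± 0.25 SE, edgeR adjusted p = 0.0206), and over all alternatives its adjusted p ranged from 0.0206 to 0.453. Without late 3 the log2 fold change was 0.61 for the 5p arm and 0.40 for the 3p arm.

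**Figure D2:**
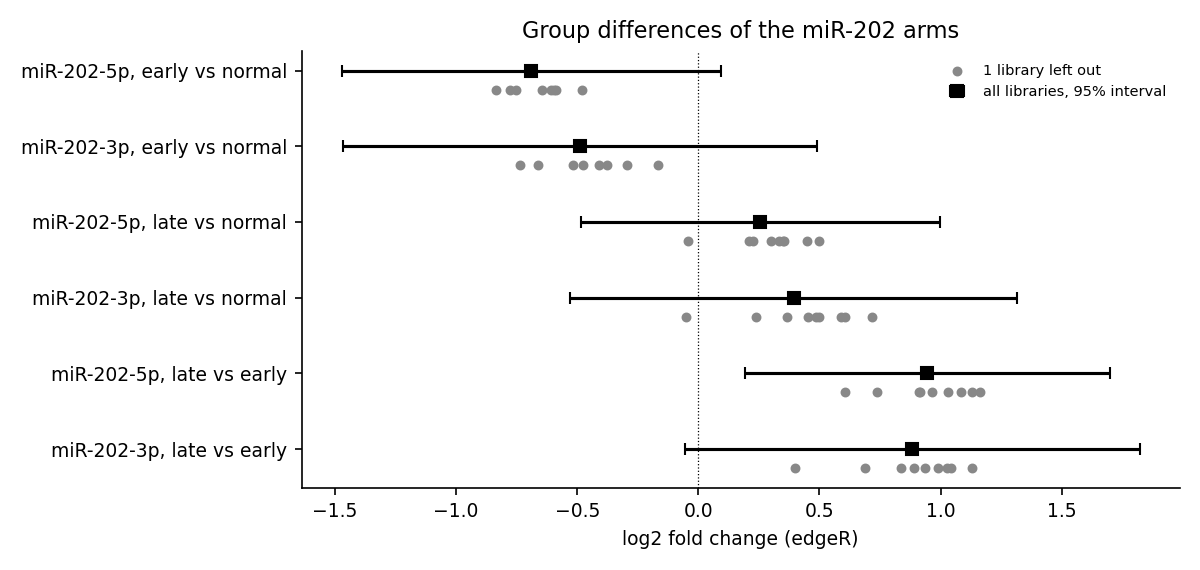
Log2 fold changes of both arms in the 3 comparisons (edgeR). Squares are the values from all libraries with 95% intervals, and grey points are the values with 1 library left out. Only the interval of the 5p arm in late against early tumour lies above 0, and late against normal crosses 0 when late 3 is left out.

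Levels of both arms spread widely within groups. The SD of the 5p arm within groups was 0.59 on the log2 scale, where the median over the 266 miRNAs was 0.42. Among the 35 miRNAs nearest to it in level, the median SD was 0.34 and 4 had a larger one. For the 3p arm the SD was 0.67, with a median of 0.43 among its 40 nearest miRNAs, of which 8 had a larger one. In the late group the highest 5p value was 3.61 times the lowest, against 2.49 times in early tumour and 1.74 times in normal ovary. Without late 3 the highest late value was 2.22 times the lowest. Leaving out the highest library can only lower this ratio, and no library was left out of the other groups. The value of 2.22 can therefore not be ranked against theirs.

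**Figure D3:**
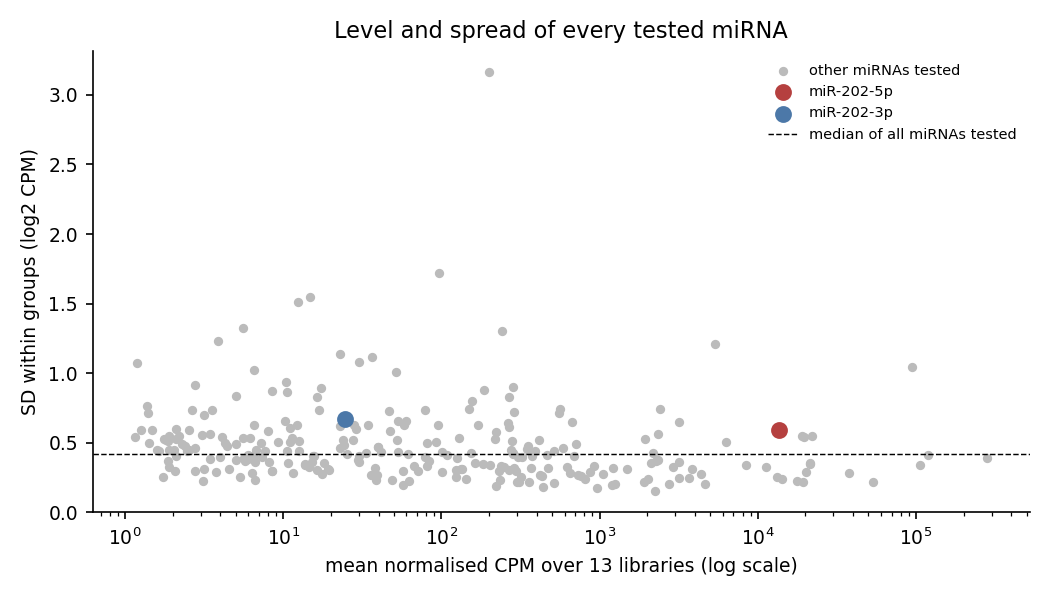
Mean CPM over 13 libraries (log axis) and SD of log2 CPM within groups for each of the 266 miRNAs tested. The 5p arm (SD 0.59) and the 3p arm (SD 0.67) lie above the median of 0.42, drawn as a dashed line.

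The arms differed from each other far more than any group differed from another. On average 602 ± 241 reads of the 5p arm were counted for each read of the 3p arm (SD, n = 13), so the 3p arm made up 0.183% ± 0.049 of miR-202 reads. As log2 ratio of 5p to 3p this was 9.08 ± 0.45. Among the 65 hairpins with both arms tested under matching names, miR-202 was at rank 9 by the size of the log2 ratio, where the median hairpin had 5.06. Hairpins with an arm below the filter on low counts, or with arms named unalike, were not among them. The rank and the median hold for these 65 only. Its spread within groups was the middle value of those hairpins (SD 0.48, rank 33 of 65).

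By library, the share of the 3p arm was 0.0779% in normal 6, 0.144% in normal 3, 0.223% in normal 7 and 0.236% in normal 4. In early tumour it was 0.147% in early 11, 0.185% in early 21, 0.209% in early 9 and 0.242% in early 12. The late values were 0.118% in late 7, 0.178% in late 23, 0.190% in late 25, 0.212% in late 31 and 0.214% in late 3. Normal 6 had the lowest share, and its exact 95% binomial interval of 0.0574% to 0.103% overlapped that of late 7 (0.0988% to 0.139%) and of no other library. Late 3, with the highest level of both arms, had a share inside the range of the other libraries.

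**Figure D4:**
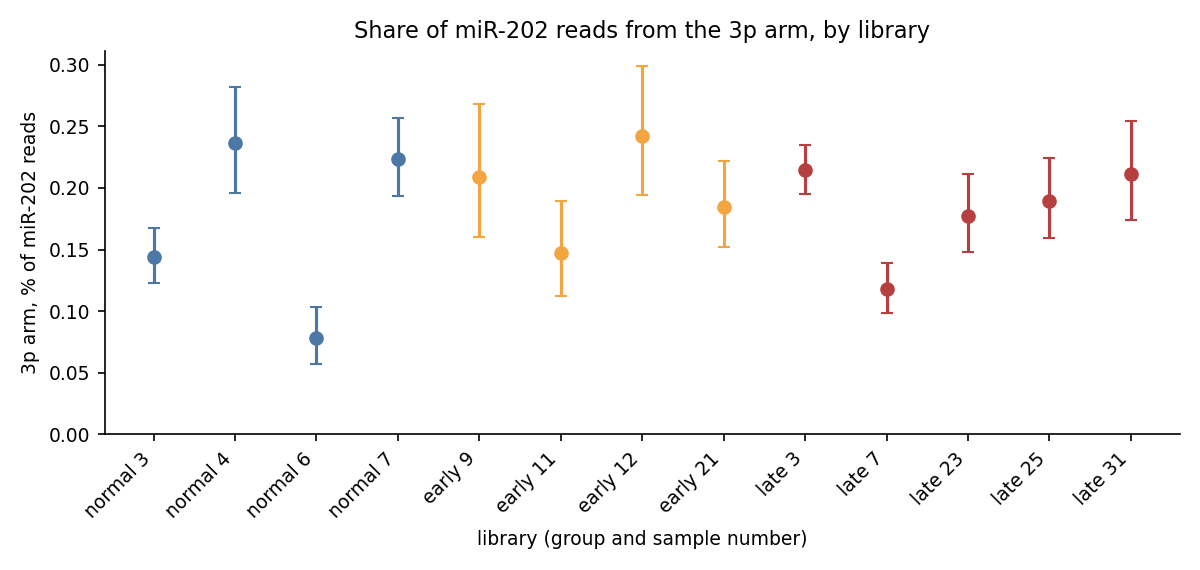
Share of miR-202 reads that came from the 3p arm in each library, with exact 95% binomial intervals from the read counts. The share runs from 0.0779% in normal 6 to 0.242% in early 12, and the groups overlap.

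The balance of the arms was tested across the 65 hairpins with limma on log2 ratios of CPM, with 1 CPM added to each arm. Early tumour differed from normal ovary by -0.33 ± 0.33 SE (limma adjusted p = 0.951), late from normal by -0.18 ± 0.31 SE (adjusted p = 0.770) and late from early by 0.15 ± 0.31 SE (adjusted p = 0.757). No hairpin was called in any of these comparisons (0%), and 7.69%, 21.5% and 15.4% of hairpins had an unadjusted p under 0.05. An exact two-sided permutation test of the miR-202 ratio alone gave p = 0.457, 0.651 and 0.548, where the smallest p the design allows is 0.0286 for early against normal and 0.0159 for the others. Without normal 6 the early against normal difference was -0.00889 and the late against normal difference turned to 0.14, and without late 7 that of late against early was -0.000973.

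Across the 13 libraries the levels of the arms rose and fell together. On the scale of log2(CPM + 1), Pearson's r was 0.776 (permutation p = 0.0024) and Spearman's rho 0.632 (permutation p = 0.024). After each value was centred on its group mean, r was 0.720 and rho 0.780. Without late 3 and early 9, the libraries farthest from the median of the 5p arm, r was 0.425 (permutation p = 0.20, n = 11). Leaving out the farthest libraries narrows the range, which by itself lowers r, so this drop cannot show how far the relation rested on them. The same holds for each r given below without late 3 and early 9. Without late 3 alone, chosen after seeing the data, r was 0.644 (permutation p = 0.023) and rho 0.531 (permutation p = 0.078).

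Next, the miRNAs with the pattern most like each arm were sought by Pearson's r over the 13 libraries. For the 5p arm these were miR-135a-5p (r = 0.844, rho = 0.670), miR-449d-5p (0.827 and 0.725), miR-449c-5p (0.825 and 0.791), miR-449a (0.813 and 0.780) and the 3p arm itself. The miR-449 family is known for its part in the formation of motile cilia. Of the 265 other miRNAs, 0 passed after adjustment for the 5p arm, and the adjusted permutation p of these miR-135a and miR-449 members was 0.064 each. Without late 3 and early 9, r was 0.453 for miR-135a-5p and 0.517 to 0.603 for the miR-449 members. After centring on group means 7 passed. Of these, miR-135a-5p, miR-31-5p, miR-31-3p and the 3 miR-449 members had a positive r, and miR-146a-5p a negative one (-0.8). The permutations treated the centred values as free and did not allow for the group means taken out. These p-values are therefore too small, and how many would pass with that allowance was not tested.

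For the 3p arm the order was miR-135a-5p, miR-153-3p, the 5p arm, miR-499-5p and miR-449a. Its relation with miR-135a-5p passed (r = 0.893, rho = 0.797, adjusted permutation p = 0.019 for r and 0.45 for rho). Without late 3 it did not pass (r = 0.825, adjusted permutation p = 0.10), nor without late 3 and early 9 (r = 0.768, adjusted permutation p = 0.96). Without early 11, r stayed at 0.893 and the adjusted permutation p was 0.05, at the threshold, which was not counted as passing. miR-135a-5p itself had a mean of 342.3 ± 100.4 CPM in normal ovary, 281.1 ± 101.9 in early tumour and 418.4 ± 148.0 in late tumour. Late 3 was also its highest library and early 9 its lowest, which can follow from its choice by a high r with the arms. The same held for miR-449a, at 195.0 ± 84.3, 187.3 ± 137.5 and 433.1 ± 267.3 CPM.

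**Figure D5:**
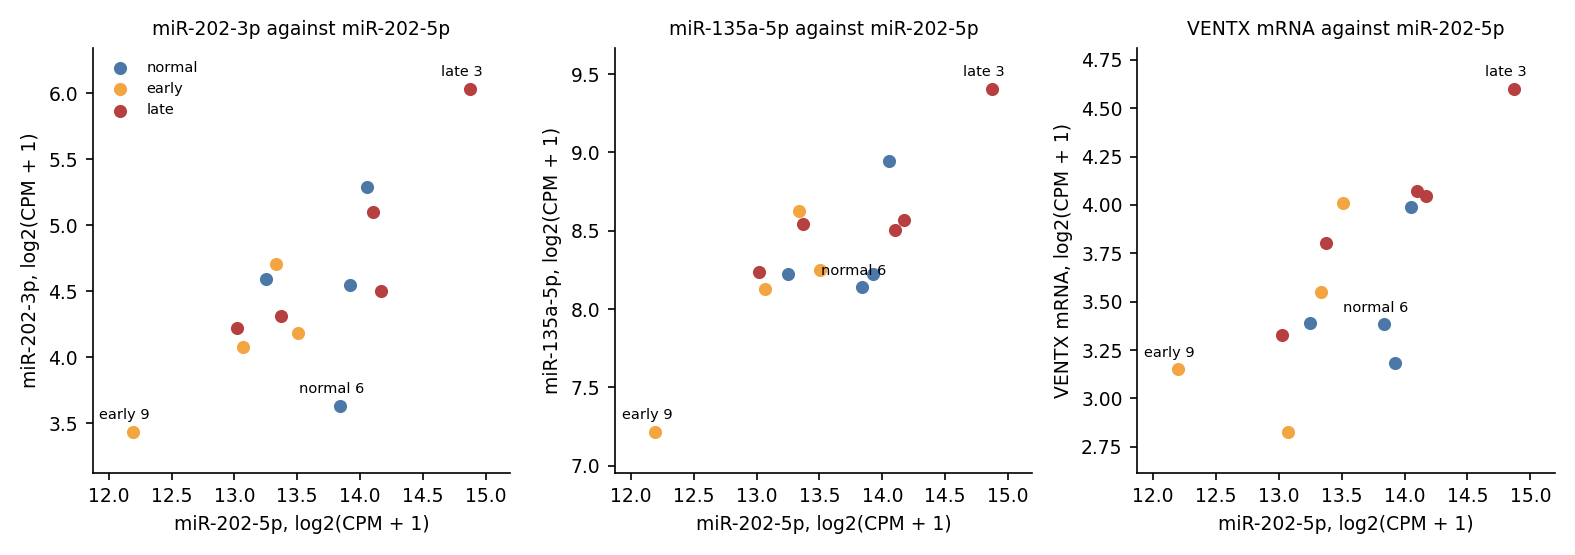
Log2(CPM + 1) of the 3p arm, of miR-135a-5p and of VENTX messenger RNA against that of the 5p arm, 1 point per sample code (n = 13), coloured by group. Late 3 and early 9 lie at opposite ends in the first and second panels, where r is 0.776 and 0.844, and r is 0.747 in the panel of VENTX.

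Lowest r with the 5p arm had miR-10a-3p (-0.715), miR-129-1-3p (-0.701) and miR-1b-3p (-0.690). With the 3p arm these were let-7b (-0.716), let-7c-5p (-0.715) and let-7i (-0.672). None of them passed after adjustment. Of these, let-7 is a family of abundant miRNAs known for restraining growth genes, and in humans miR-202-3p is often grouped with it for its similar seed, the bases that choose targets. let-7b averaged 26520 ± 10200 CPM in normal ovary, 21400 ± 5917 in early tumour and 18770 ± 6375 in late tumour, with its lowest level in late 3. Of the 18 let-7 miRNAs listed, 14 were tested, and edgeR called 0 of them in any of the 3 comparisons, where it called 0%, 0.752% and 0% of all miRNAs. At an unadjusted p under 0.05 there was 1, in late against normal, where 18.4% of all miRNAs had such a p. In early against normal and late against early there were 0, where 8.27% and 14.3% of all miRNAs had one. Their median log2 fold change was -0.25 in early against normal, -0.35 in late against normal and -0.07 in late against early, where the median of all miRNAs was -0.10, -0.12 and -0.05. These counts and medians mix both arms of the let-7 hairpins. Members named 3p, such as let-7f-3p, are the opposite arms and do not carry the let-7 seed.

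The messenger RNA table was used to look at the hairpin's own locus, chosen after the files were seen. In RefSeq's annotation of assembly GRCg7b the hairpin gene lies inside 2 other genes, the homeobox gene VENTX and the long noncoding RNA LOC121113371. The build behind the deposited table is not given in the sources used here, and whether its counting used strand is not known, so reads of overlapping genes may be shared between them. The hairpin gene MIR202 had 0 counts in all messenger RNA libraries. Normal libraries held 14.8, 12.7, 28.5 and 50.8 CPM of LOC121113371 (normal 3, 4, 6 and 7), early libraries 20.4 to 36.04 and late libraries 36.6 to 53.8. For VENTX the ranges were 8.08 to 14.9 CPM, 6.10 to 15.1 and 9.04 to 23.3.

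VENTX is a homeobox factor. Its r with the 5p arm was 0.747 and its rho 0.786 (permutation p = 0.0032 and 0.0021), which put it at rank 81 of the 16130 genes tested. It was not called after adjustment over all genes (adjusted permutation p = 0.301). With the 3p arm r was 0.733 and rho 0.659 (adjusted permutation p = 0.218). Without late 3 and early 9, r fell to 0.594 with the 5p arm and 0.499 with the 3p arm. LOC121113371 had r = 0.402 and rho = 0.577 with the 5p arm (permutation p = 0.17 and 0.042), and r = 0.355 without late 3 and early 9. No test was run of the difference between these correlations. Neither gene was called between groups: in late against early tumour the log2 fold change was 0.62 ± 0.31 SE for VENTX and 0.58 ± 0.34 SE for LOC121113371 (edgeR adjusted p = 0.736 for both).

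Over the whole messenger RNA table, the genes with the highest r with the 5p arm were R3HDML (0.935), ADRB3 (0.885), LOC121106953 (0.878), PCDH8 (0.867) and BMP4 (0.860). ADRB3 is a receptor for adrenaline-like hormones, PCDH8 a cell adhesion protein and BMP4 a growth factor of the TGF-beta family. R3HDML was a low gene at 0.761 ± 0.163 CPM in normal ovary, 0.438 ± 0.212 in early tumour and 1.03 ± 0.584 in late tumour. With the 3p arm the highest were LOC121106543 (0.902), MRPS6 (0.874), ZNF513 (0.854), MAPK4 (0.852) and SUSD3 (0.843). None of the 16130 genes passed for either arm, and the smallest adjusted permutation p was 0.161 for the 5p arm and 0.218 for the 3p arm. Late 3 was the highest library for each of these genes. They were chosen by a high r with arms that are highest in late 3, so this adds no separate evidence.

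Granulosa cells surround the oocyte and make anti-Müllerian hormone, and theca cells outside them make androgens. Of 19 granulosa genes tested, 0 passed in their relation with either arm, when adjusted over all genes, and 14 had a positive r with the 5p arm (median 0.21, against 0.03 over all genes). WNT4, a signal of ovary development, had the highest (r = 0.770, rho = 0.665, adjusted permutation p = 0.301), and averaged 467.6 ± 107.0 CPM in normal ovary, 362.7 ± 125.0 in early tumour and 510.3 ± 150.5 in late tumour. Without late 3 and early 9 its r was 0.485. CYP19A1, the aromatase, was put in the granulosa list, and which follicle cells expressed it here was not tested. Its r with the 5p arm was 0.018. PGR, the progesterone receptor, had r = -0.603 with the 5p arm and -0.697 with the 3p arm, and without late 3 and early 9 these were -0.051 and -0.247. For the 5 theca genes the median r with the 5p arm was -0.48, with CYP17A1, the androgen-making enzyme, at 0.179.

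In the testis pathway list, which includes the factor that drives miR-202 in mice, SOX9 averaged 15.0 ± 3.66 CPM in normal ovary, 13.5 ± 5.33 in early tumour and 17.5 ± 5.03 in late tumour. Its r with the 5p arm was 0.528 (rho 0.527, permutation p = 0.063, and adjusted p = 0.330), and 0.516 without late 3 and early 9. HEMGN, a gene of the chicken male pathway, had r = 0.642, and 0.452 without those libraries. These were the highest of the list, in which 5 of 9 genes had a positive r and the median was 0.04, against 0.03 over all genes. DMRT1, the sex-determining factor of birds, had r = -0.230, SOX10 -0.253, PTGDS -0.341 and NR0B1 0.0427. Oocyte genes had a median r of 0.30 with the 5p arm, 12 of 14 positive. BMP15, an oocyte growth factor, had the largest (0.648), and 0.217 without late 3 and early 9. Of the 107 list genes tested, 0 were called by edgeR in any comparison between groups, as were 0 of all 16130 genes (0%), while 813 genes (5.04%) had an unadjusted p under 0.05 for early tumour and normal ovary, 2893 (17.9%) for late tumour and normal ovary and 1023 (6.34%) for the tumour stages. DESeq2 called 8, 126 and 9 genes in these comparisons and limma voom 0, 895 and 0, among them 6 and 5 list genes for late tumour and normal ovary and 0 in the others.

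Among genes of miRNA processing, 9 of 14 had a positive r with the 5p arm (median 0.17). TNRC6A, a partner of Argonaute in silencing, had r = 0.731 and rho = 0.604 (adjusted permutation p = 0.301), and AGO2, an Argonaute, r = 0.661. Without late 3 and early 9 these were 0.413 and 0.247. The epithelial and carcinoma genes went both ways, with 5 of 9 positive (median 0.12, from -0.655 to 0.719). CD24, a surface protein of epithelial cells, had r = 0.719 with the 5p arm, and 0.410 without those libraries. The keratins KRT7, KRT8 and KRT18 had r of -0.570, -0.604 and -0.420, and the epithelial transcription factor ELF3 had -0.655. The endothelial genes PECAM1 and VWF had r = -0.703 and -0.698, and -0.114 and -0.218 without late 3 and early 9. Over the 11 endothelial genes r with the 5p arm ran from -0.703 to 0.642 (median -0.536), and 1 was positive.

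Late 3 and early 9 also stood at an end of some, but not all, of the summed marker lists, whose genes were read in every group. Late 3 had the lowest summed level of 10 smooth muscle genes (242.7 CPM), of 11 endothelial genes (414.4) and of 12 T, B and myeloid cell genes (304.6). It had the highest of 14 oocyte genes (2827 CPM), 9 epithelial and carcinoma genes (2333) and 14 genes of miRNA processing (1030). In the other lists late 3 was inside the range of the libraries. Counted from the highest, it was at rank 5 for granulosa genes (1931 CPM), 3 for testis pathway genes, 9 for red blood cell genes and 11 for theca genes. The most abundant of the epithelial genes were EPCAM and CD24, with means of 1088 and 628.2 CPM in late tumour. KRT7, KRT8, KRT18 and ELF3 had lower means in late tumour than in the other groups, such as 175.0 CPM for KRT7 against 245.3 in normal ovary and 384.8 in early tumour. Early 9 had the highest endothelial sum (860.3 CPM, with early 21 next at 813.9) and the lowest oocyte sum (1295), and was at neither end of the other lists. By group, endothelial sums ran from 506.6 to 605.7 CPM in normal ovary, 548.4 to 860.3 in early tumour and 414.4 to 628.4 in late tumour, and smooth muscle sums from 892.5 to 11480, 557.0 to 4888 and 242.7 to 2019. In late against early tumour 10 of 11 endothelial genes and 10 of 10 smooth muscle genes were lower, with 5 and 0 at an unadjusted p under 0.05, where 49.5% of all genes were lower and 6.34% had such a p. In late tumour against normal ovary all 10 smooth muscle genes were lower at an unadjusted p under 0.05 (median log2 fold change -2.05), and 9 of 11 endothelial genes were lower, with 5 of the 11 at such a p. Over all genes 49.1% were lower there and 17.9% had such a p. None of these genes was called by edgeR after adjustment. A positive r with the 5p arm was found for 0 of 10 smooth muscle genes, 1 of 11 endothelial genes and 2 of 12 T, B and myeloid cell genes, against 52.5% of all genes. Of the 107 list genes, 22 had an unadjusted permutation p under 0.05 with the 5p arm, against 15.7% of all genes. With the 3p arm 28 list genes had such a p, against 19.3% of all genes. Without late 3 and early 9 there was 1 such list gene for the 5p arm and 0 for the 3p arm. The share of all genes without those libraries was not computed, so this drop cannot be read as particular to the list genes. The part of any of these cell types in the levels of miR-202 was not tested.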

How the data were processed

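The authors' deposited miRNA table holds raw counts per mature miRNA (1235 named rows, 458 with no read, and an unnamed row of 0 counts that was left out). Their deposited messenger RNA table holds estimated counts for 25079 genes, of which 30.1% of values are not whole, and these were rounded. A deposited TPM table was not used. The deposited lengths of mature miRNAs were copied as listed. Per the submitters' processing notes, FastQC, BWA and GATK 3.3.0 were named, without a stated role. How reads were counted, on which strand and on which build is not given in the sources used here. The labels hold 26 records, and each sample code stands in 2 of them, so columns were matched to groups by the code.

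Tests used edgeR 4.0.16 in R 4.3.3 (quasi-likelihood, robust, TMM scaling, filterByExpr with a minimum count of 10), with all 13 libraries and a mean per group, which kept 266 miRNAs and 16130 genes. Arm ratios used limma 3.58.1 with 1 CPM added. CPM values are means ± SD of TMM-scaled counts. Correlations used 100000 permutations (two-sided, seeded, smallest possible p 1e-05) in Python 3.11.15, with Benjamini-Hochberg adjustment over all miRNAs or all genes for each arm. Scripts were tested on simulated data. Messenger RNA libraries held 16273668 to 20118500 counts. miRNA sequences are not printed here, and coordinates are left out because the build is not known.

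The arms and the 10 gene lists were chosen with earlier results of these data known. The lists are named for a cell type or pathway, and which cells expressed their members here was not tested. GATA4 is in both the granulosa and the testis pathway list, and LHCGR in both the granulosa and the theca list. miRNAs named are the 5 with the highest and 3 with the lowest r for each arm, their neighbours in level and let-7 members; genes are the 5 with the highest r and, from each list, the most abundant members and those with the largest r, of which the text gives a part. Genes of the locus, ZP1, KRT7, KRT8, KRT18, ELF3, DMRT1, SOX10, PTGDS and NR0B1 were chosen after their values were seen. Alternatives were RLE and library-total scaling, totals without miR-451, no filter, DESeq2 1.42.0, limma voom, fits of 2 groups, other pseudocounts and leaving out libraries.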

Additional observations from a re-analysis of the deposited data

Results flagged for a closer look

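In 30 sets of 4 or 5 libraries from 10 quantities, 3 held a library whose gap to the nearest of the others took up an unusually large part of the group's range, where chance gives about 1 in 20. miR-451 took 36.33% of the reads in early 11, and its gap was 0.848 of the range of the early group. The 5p arm of miR-202 was at 11645 CPM in that library, the highest of its group after TMM scaling. By share of all miRNA reads it was at 0.909% there, below early 12 at 1.16%. LOC121113371 stood at 53.84 CPM in late 25, with a gap of 0.797 of the late range, and KNDC1, a gene near the hairpin, at 27.65 CPM in late 7, with a gap of 0.723. Neither arm of miR-202 nor the ratio of the arms met this mark in any group.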

How the results depend on the processing

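Of 180 repeats of the results under other settings, 163 kept the direction and the side of the threshold, or for counts stayed within 1.5 times. Most of the repeated results had not passed to begin with, so staying above the threshold or at a count of 0 was taken as kept. This total is therefore no measure of how firm a result is. Where a result had passed, the correlation of the arms was kept in 5 of 6 repeats. The count of miRNAs like the 3p arm was kept in 1 of 6. For the late against normal difference, leaving out single libraries gave log2 fold changes of -0.04447 to 0.4973 for the 5p arm and -0.05041 to 0.7151 for the 3p arm, and the sign turned without late 3. For late against early these ranges were 0.6063 to 1.164 and 0.4001 to 1.129, and for early against normal -0.8369 to -0.4812 and -0.7353 to -0.1681. The log2 arm ratio differed by -0.3764 to 0.138 in late against normal, -0.0009726 to 0.2798 in late against early and -0.5233 to -0.008891 in early against normal. Without a low count filter the 5p arm passed in late against early (1.026, edgeR adjusted p = 0.0206), and the cause was not tested. miRNAs called by edgeR went from 0, 2 and 0 (early against normal, then late against each of normal and early) to 6, 6 and 5 without the filter and 3, 15 and 4 with DESeq2. List genes called in late against normal went from 0 to 6 of 107 with DESeq2 and 5 of 107 with limma voom. Of all 16130 genes tested, these tools called 126 and 895 there.

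The correlation of the arms was 0.425 without late 3 and early 9, and 0.644 without late 3 alone. miRNAs whose relation with the 5p arm passed went from 0 to 7 after centring on group means, 5 with library totals and 5 with totals without miR-451. For the 3p arm they went from 1 to 4 after centring, 5 with library totals, and 0 without late 3 and early 9, without early 11 or without late 3 (chosen after seeing the data). The permutations did not allow for the group means taken out by centring, so the p-values behind the 7 and the 4 are too small.

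Normal and late samples share the numbers 3 and 7 in their codes. Same-numbered samples deviated from their group means with correlations of -0.12 and 0.0625. These values alone can neither show nor exclude pairing, and whether such samples come from the same hen is not known. With the number as a replicate block (4 libraries), late against normal gave 0.6808 for the 5p arm, 0.5099 for the 3p arm and 0.1813 for the arm ratio, none called (adjusted p from 0.881 to 0.914). The 3p arm had 48 to 439 reads per library, with a counting error of 4.77% to 14.4%. Its SD within groups was 0.668 on the log2 scale.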
